A study of Mus musculus with 27 samples.

Results

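The Wnt ligands, their Frizzled receptors and their secreted antagonists were followed in mouse tibialis anterior muscle during the 21 days after volumetric muscle loss (VML), an injury in which part of the muscle is cut away. The set held the protein-coding genes named Wnt, Fzd (Frizzled), Sfrp (secreted frizzled-related protein), Dkk (Dickkopf) or Rspo (R-spondin) with a number, together with Frzb, Wif1 and the target genes Axin2 and Lef1. It came to 45 of the 54532 genes of the table. Of these, 25 reached an FPKM (fragments scaled to gene length and to library size) of at least 0.5 in at least 5 samples and could be tested. They were 7 of 19 ligands, 9 of 10 Frizzled receptors, 5 of 6 antagonists that bind Wnt proteins (the Sfrp genes, Frzb and Wif1), 2 of 4 Dickkopf genes, 1 of 4 R-spondins and 1 of 2 target genes. Wnt3a had no read in any sample.

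Wnt proteins are secreted, lipid-modified signals that bind Frizzled receptors and co-receptors of the LRP and ROR families. In the canonical branch the receptors stop the breakdown of beta-catenin, which then acts with factors of the TCF/LEF family on target genes such as Axin2, while other branches act through calcium and cell polarity. Secreted antagonists either bind the ligand, as the Sfrp proteins, Frzb and Wif1 do, or block the LRP co-receptor, as several Dickkopf proteins do, and R-spondins raise the response by sparing the receptors from removal. In skeletal muscle the pathway takes part in the development and repair of fibres and in the behaviour of satellite cells and fibroblasts.

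The 27 samples were whole tibialis anterior muscles of C57BL/6 mice, described by the study as male and 8 weeks old, with 40% of the muscle excised in the injured groups. There were 5 uninjured muscles (labelled control, with no further treatment named), 5 on day 3, 6 on day 7, 6 on day 14 and 5 on day 21. The study's sources differ on whether one or both legs were operated on, and the labels do not settle this or say whether each sample is a separate animal, so p-values measure only the spread between these samples. Sequencing depth, as reads recovered from the deposited values, was 14376395 to 24436763 (median 17398586), and all 5 listed markers of muscle fibres were present in every group. By its expression over all tested genes, each of 9 injured samples lay nearer to the mean of another group than to that of its own, among them day 3 replicate 5 and day 7 replicates 3, 5 and 6.

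All comparisons used limma on log2(FPKM + 1), with Benjamini-Hochberg adjustment over 14630 genes, and a gene was called at an adjusted p under 0.05. Fold changes on this scale understate the change of genes near 0 FPKM. The denominators behind the deposited FPKM were 0.747 to 1.48 times each sample's own total of reads, so every direction depends on that scaling. When every sample's FPKM were scaled to the same sum (a setting that passed 29 members through the filter), the median of all genes moved to 0.55 on day 3, 0.52 on day 7, 0.32 on day 14 and 0.13 on day 21, and with the own total of reads as denominator it moved to 0.40, 0.36, 0.24 and 0.11. Every called decrease of a member against uninjured muscle is therefore a decrease under the deposited scaling: none was called under either of these settings.

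After injury the antagonists Sfrp1, Sfrp2 and Sfrp4 were called higher. Wnt4 and Fzd9, the ligand and receptor with the highest mean in uninjured muscle, were called lower under the deposited scaling. On day 3, 9 of the 25 testable members were called (36.0%), against 43.2% of all tested genes. Of the members, 5 were higher (Sfrp2, Sfrp1, Fzd2, Fzd1 and Wnt10a), where 23.4% of all genes were, and 4 were lower (Fzd9, Wnt4, Wnt9a and Fzd7), where 19.8% were. On day 7, 7 members were called (28%) against 29.4% of all genes, 5 higher against 15% and 2 lower against 14.4%. On day 14, 8 were called (32.0%) against 20.3%, 5 higher against 9.02% and 3 lower against 11.3%. On day 21, none of the 25 was called by limma, against 3.43% of all genes, while 5 members had an unadjusted p under 0.05. Voom weights on the recovered reads also called 0, but sample quality weights called 5 (Fzd4, Fzd9, Wnt9a, Wnt11 and Sfrp4), a fit of only the groups compared 4 (Fzd4, Sfrp1, Sfrp2 and Sfrp4) and a pseudocount of 0.1 called 2 (Sfrp2 and Sfrp4). Of all 14630 tested genes, these settings called 282, 2471, 1477 and 647 in the same order. Exact permutation tests were run for the members called on an earlier day, Axin2 and Lef1. For day 21, the exact permutation test gave an unadjusted p = 0.00794 for each of Fzd4, Sfrp2 and Sfrp4. For Sfrp1 and Wnt9a the exact permutation test gave an unadjusted p = 0.0159. For the other genes tested this way, the unadjusted exact permutation p on day 21 ran from 0.0794 (Fzd9) to 0.603 (Lef1). The 4 comparisons share the uninjured samples, and the shares called among the members lay near or below those of all genes on days 3 and 7. The balance of directions depended on the scaling: under the common sum 9, 14 and 4 members were called higher and 0 lower on days 3, 7 and 14, and under the own total 7, 11 and 4 were higher and 0 lower. Of all genes, 7804, 6916 and 2070 of 17174 were called in either direction under the common sum on these days. Under the own total 7299, 5867 and 2550 of 14887 were called. Sfrp2, Sfrp1, Fzd2, Fzd1 and Wnt10a were called higher on day 3 under both. The median log2 fold change of the 25 members was -0.08 on day 3, 0.15 on day 7, 0.13 on day 14 and 0.06 on day 21, against 0.01, 0.03, 0.02 and 0.01 over all tested genes. The plot of fold changes sets the 4 times side by side.

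**Figure D1:**
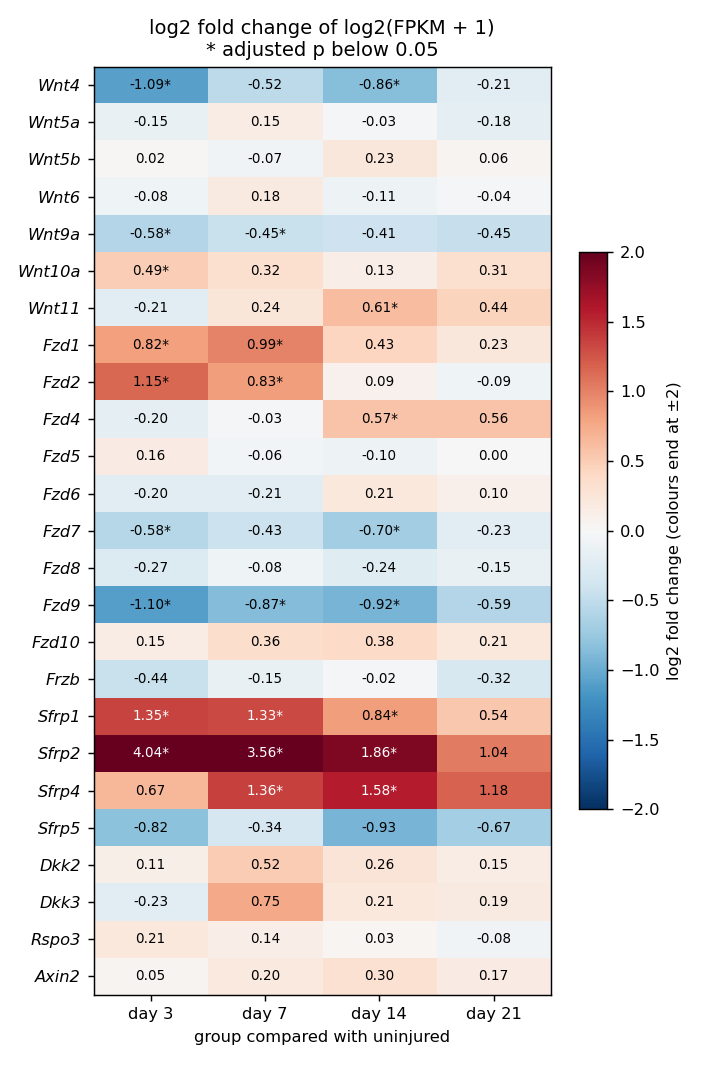
Log2 fold change on the log2(FPKM + 1) scale of the 25 testable members (rows) at each day against the 5 uninjured muscles (columns); red is higher, blue lower, colours end at 2 and an asterisk marks an adjusted p under 0.05. Sfrp2 stands out in red at 4.04 on day 3, Wnt4 and Fzd9 are the deepest blue at -1.09 and -1.10, and no asterisk is found on day 21.

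Sfrp2 had the largest change of the set. The Sfrp2 protein is a secreted relative of the Frizzled extracellular domain that binds Wnt ligands, and it is made by fibroblasts in many tissues. In uninjured muscle it was read 3, 0, 0, 0 and 3 times in the 5 libraries, or 0.04 FPKM ± 0.05 (SD, n = 5). It reached 0.5 FPKM in 20 libraries, all of them injured, and so entered the test only through injured muscle. Its level was 9.86, 9, 21.8, 38.3 and 13.8 FPKM on day 3. On day 7 it ran from 4.03 to 25.5 FPKM with a median of 11.2, and on day 14 from 0.446 to 9.58 with a median of 2.28. On day 21 the libraries held 0.661, 2.27, 1.11, 1.70 and 0.458 FPKM. Every injured library was thus above every uninjured library at all 4 times. The gene lies at chr3:83766321-83774316 on the plus strand (GRCm38). The log2 fold change was 4.04 ± 0.46 (SE) on day 3 (adjusted p = 5.88e-07), 3.56 ± 0.44 on day 7 (adjusted p = 6.74e-06) and 1.86 ± 0.44 on day 14 (adjusted p = 0.00492). On day 21 it was 1.04 ± 0.46 (adjusted p = 0.203). Pooled over libraries, 4512 reads on day 3 against 6 in uninjured muscle gave a ratio of rates of 483, with a 95% exact interval of 222 to 1320 that covers counting error only. The ratio on day 21, from 195 reads, was 30.8 with an interval of 13.9 to 84.8. In bulk muscle, more cells that express a gene and more RNA per cell cannot be told apart. Sfrp2 shares exon sequence with Gm26771 on the opposite strand, and the libraries do not keep strand. Reads of the 2 genes therefore cannot be separated within the shared stretch, whose length is not given here.

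Promoter entries were not available for every member with full statistics. Sfrp1, Sfrp4 and Fzd2 were called too, but they had no entry and no sequence is given for them, and Lef1 is not shown either. Sfrp2 rose most, and Wnt4 and Fzd9 were called lower under the deposited scaling. Axin2, the standard readout of canonical signalling, was not called under that scaling. The sequences before the annotated starts of these last 4 members, Sfrp2, Wnt4, Fzd9 and Axin2, are shown. They come from the RefSeq promoter table on GRCm38.p6, written 5′ to 3′ on the gene's strand, and end before the first transcript start of the gene in GENCODE M21: chr3:83766071-83766320 (plus strand) for Sfrp2, chr4:137277385-137277488 (plus) for Wnt4, chr5:135251231-135251297 (minus) for Fzd9 and chr11:108920099-108920348 (plus) for Axin2. Capitals mark the GC box GGGCGG, to which SP1 binds, on either strand.
Sfrp2: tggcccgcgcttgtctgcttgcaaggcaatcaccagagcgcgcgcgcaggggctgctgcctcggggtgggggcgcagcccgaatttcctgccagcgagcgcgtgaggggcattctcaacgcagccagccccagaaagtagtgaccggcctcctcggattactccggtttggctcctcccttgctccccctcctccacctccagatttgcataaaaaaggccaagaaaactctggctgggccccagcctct
Wnt4: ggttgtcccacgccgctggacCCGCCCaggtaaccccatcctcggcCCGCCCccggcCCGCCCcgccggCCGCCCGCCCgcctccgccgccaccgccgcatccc
Fzd9: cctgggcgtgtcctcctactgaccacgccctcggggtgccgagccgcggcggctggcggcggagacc
Axin2: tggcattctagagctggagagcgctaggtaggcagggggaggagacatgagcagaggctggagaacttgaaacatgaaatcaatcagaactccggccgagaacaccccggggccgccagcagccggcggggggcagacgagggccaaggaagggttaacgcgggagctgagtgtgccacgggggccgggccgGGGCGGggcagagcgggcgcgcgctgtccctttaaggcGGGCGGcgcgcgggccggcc
The core of the TCF/LEF motif, CTTTGA, was searched on both strands together with the E-box CAGCTG, the AP-1 motif TGANTCA and the GC box. None of the first 3 was found in these 4 windows. Wnt4 had 5 GC boxes, of which a pair overlaps, Axin2 had 2, and Sfrp2 and Fzd9 had 0 in the windows shown. These windows held 250 bases for Sfrp2 and Axin2 but only 104 for Wnt4 and 67 for Fzd9. Over the full 250 bases of its entry, Fzd9 did hold a GC box. The shorter windows are thus not comparable with the shares that follow. Over the 250 bases before the start of all 32851 entries of the table, CTTTGA was found in 13.8%, CAGCTG in 13%, TGANTCA in 6.75% and GGGCGG in 32.7%. Among the members, 37 entries for 31 genes were matched, and 6 of the 37 held CTTTGA (from Dkk1, Frzb, Fzd1, Lef1, Wnt11 and Wnt5b) and 27 held a GC box. The GC content of the windows shown was 63.6% for Sfrp2, 83.7% for Wnt4, 77.6% for Fzd9 and 69.2% for Axin2. The median over the 250 bases of all entries was 52.4%. A match in these letters is a description and not a binding site.

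Sfrp1 and Sfrp4, a pair of further ligand-binding antagonists, were also called higher. Sfrp1 was at 0.206, 0.598, 0.195, 0.242 and 0.109 FPKM in uninjured muscle. On day 3 it was at 1.70, 0.993, 2.97, 3.50 and 2.57 FPKM, and on day 7 it ran from 0.873 to 4.53 with a median of 2.16. Neither range reaches down to the uninjured muscles, whereas the day 14 range (0.305 to 2.45, median 1.65) does. Its log2 fold change was 1.35 ± 0.29 on day 3 (adjusted p = 0.00063), 1.33 ± 0.28 on day 7 (adjusted p = 0.00143) and 0.84 ± 0.28 on day 14 (adjusted p = 0.0348). The day 14 call was lost when any one of 8 libraries was left out (uninjured replicates 1, 3, 4 and 5 and day 14 replicates 1, 2, 4 and 5), with adjusted p up to 0.0956. It was also not called under the common sum (1.37, adjusted p = 0.0502) and the own total (0.96, adjusted p = 0.0544). It was 0.54 ± 0.29 on day 21 (adjusted p = 0.309).

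Sfrp4 was at 0.665, 0.459, 0, 0.408 and 0.131 FPKM in uninjured muscle and at 1.03, 0.761, 1.53, 0.336 and 2.24 on day 3, where the groups overlapped and it was not called (0.67 ± 0.39, adjusted p = 0.175). Under the common sum it was called there (1.34, adjusted p = 0.0259), and under the own total it was not (0.89, adjusted p = 0.0624). On day 7 it ran from 0.433 to 11 FPKM (median 2.10), the highest library being replicate 3. On day 14 it ran from 1.01 to 6.37 (median 3.28), and on day 21 it was at 1.90, 3.65, 2.21, 1.51 and 1.16. All libraries of days 14 and 21 were above the uninjured range. The log2 fold change was 1.36 ± 0.37 on day 7 (adjusted p = 0.00845), 1.58 ± 0.37 on day 14 (adjusted p = 0.00497) and 1.18 ± 0.39 on day 21 (adjusted p = 0.0877). The day 21 value became a call, with an unchanged fold of 1.18, when day 7 replicate 3 was left out of the shared estimate of the spread (adjusted p = 0.0257).

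**Figure D2:**
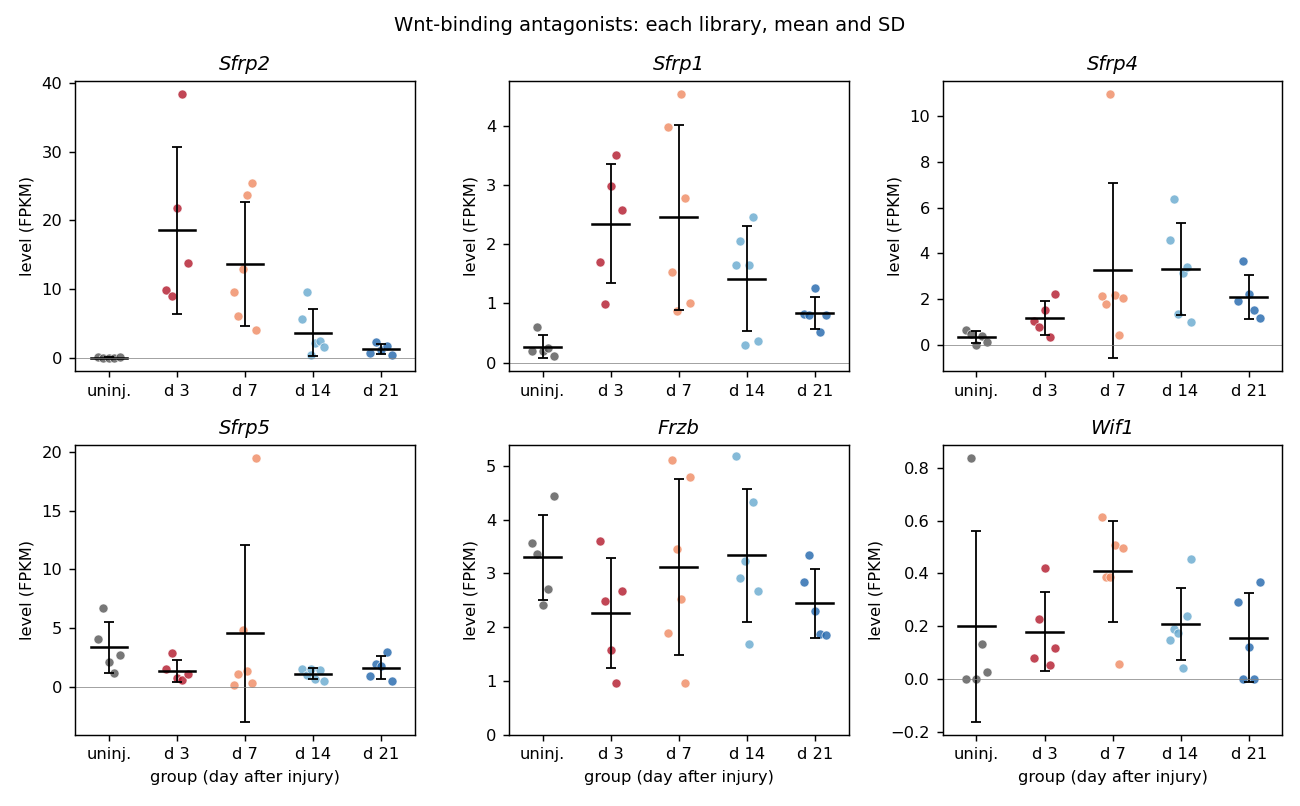
Level in FPKM of the 6 Wnt-binding antagonists in each library (points) with the group mean (line) and SD (bars) in uninjured muscle and on days 3, 7, 14 and 21; each panel has its own axis. Sfrp2 and Sfrp1 are high on days 3 and 7, and Sfrp4 lies above all uninjured libraries on days 14 and 21. On day 7, 1 library of Sfrp4 stands at 11 FPKM and 1 of Sfrp5 at 19.5 FPKM.

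The remaining antagonists did not pass the test at any time in the fit of all samples under the deposited scaling. Sample quality weights called Sfrp5 lower on days 3 and 14, and a fit of only the groups compared called it lower on day 14. Sfrp5 and Frzb were the main antagonists of uninjured muscle, at 3.39 ± 2.14 and 3.30 ± 0.79 FPKM (SD, n = 5). Sfrp5 averaged 1.39 FPKM on day 3, 4.58 on day 7, 1.15 on day 14 and 1.66 on day 21. The day 7 mean rests on replicate 6 at 19.5 FPKM, as the other 5 libraries held 0.176 to 4.85. In that library the 4 listed Schwann cell markers, all detected, summed to 777 FPKM, against 2.18 to 91.8 in the other day 7 libraries and 18.1 to 155 in uninjured muscle, and their part in the Sfrp5 level was not tested. Frzb averaged 2.26, 3.12, 3.33 and 2.44 FPKM at the 4 times. Wif1, which binds Wnt proteins through a domain of its own, did not reach the filter and peaked at 0.838 FPKM in an uninjured library. Under the common sum it passed the filter and was called higher on day 7.

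The antagonists summed to 7.53 ± 3.02 FPKM in uninjured muscle, 25.9 ± 11.2 on day 3, 27.4 ± 8.10 on day 7, 13.1 ± 6.44 on day 14 and 8.43 ± 2.49 on day 21. Sfrp2 made up 0.495% of this sum without injury and 66.8% on day 3, then 49.0%, 24% and 13.8%. Sfrp5 held 42.3% of the sum without injury and 7.08% on day 3, and Frzb 47.2% and 11%; these shares were not tested. The day 21 libraries summed to 5.16 to 12 FPKM, close to the uninjured range of 4.73 to 12, and Sfrp4 held 24.1% of it and Sfrp1 10.7%, against 4.37% and 3.60% without injury. A share does not depend on the scaling between samples.

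**Figure D3:**
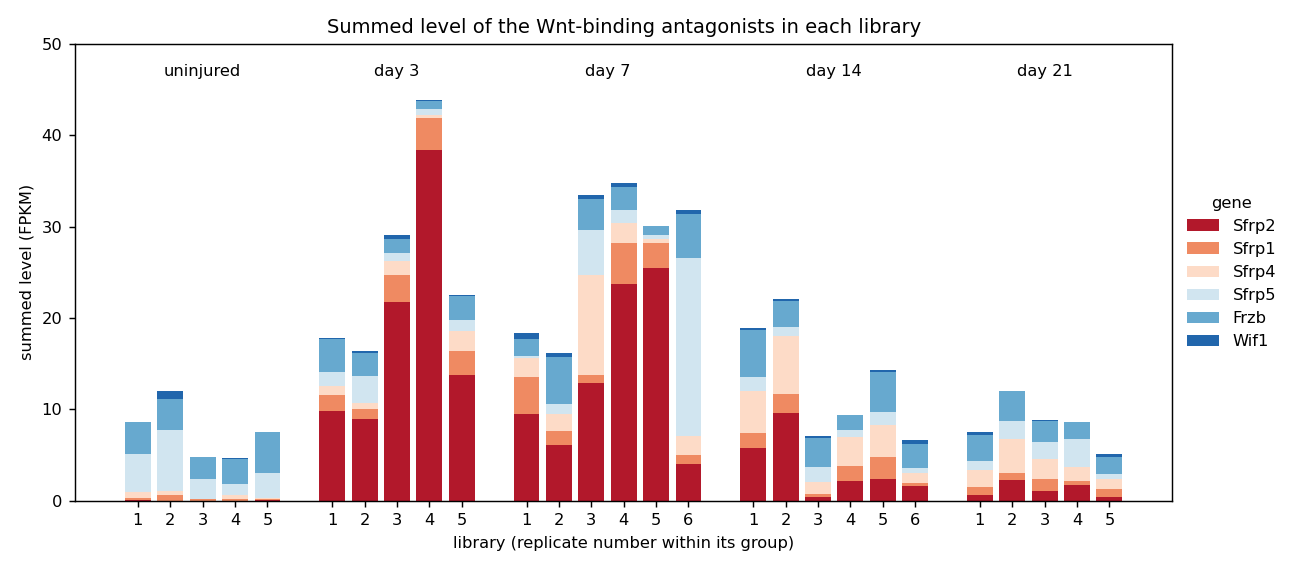
Summed FPKM of Sfrp2, Sfrp1, Sfrp4, Sfrp5, Frzb and Wif1 in each of the 27 libraries, stacked by gene; the number under a bar is the replicate within its group. Sfrp2 fills most of each bar on day 3 (66.8% on average), Sfrp5 fills most of day 7 replicate 6, and by day 21 the bars are near the height of those of uninjured muscle.

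Under the deposited scaling the receptors changed in opposite directions. Fzd9 was the most abundant Frizzled of uninjured muscle, with 14.2, 11.9, 10.5, 8.96 and 11.2 FPKM in its libraries. On day 3 they held 5.08, 6.67, 3.55, 3.79 and 4.94 FPKM, all below the uninjured range. Days 7 and 14 were spread more widely, from 2.71 to 10.9 (median 6.32) and from 3.37 to 10.8 (median 5.41), and on day 21 the libraries held 5.50, 7.04, 6.94, 14.9 and 4.41. The log2 fold change was -1.10 ± 0.31 on day 3 (adjusted p = 0.00509), -0.87 ± 0.29 on day 7 (adjusted p = 0.0267), -0.92 ± 0.29 on day 14 (adjusted p = 0.0273) and -0.59 ± 0.31 on day 21 (adjusted p = 0.286). Under the rescaling to a common sum the day 3 value was -0.41 (adjusted p = 0.246), which is -0.96 relative to the median of all genes, and under the own total -0.52 (adjusted p = 0.0932), or -0.93 relative to it. Days 7 and 14 also lost their calls, with -0.27 and -0.53 under the common sum (adjusted p = 0.424 and 0.18) and -0.40 and -0.57 under the own total (adjusted p = 0.186 and 0.104). On day 21 the letter of the sample description as a block gave -0.86 ± 0.22 (adjusted p = 0.0221) and sample quality weights gave -0.66 ± 0.23 (adjusted p = 0.0446), both called. The day 7 call was lost when any of uninjured replicates 1 and 2 and day 7 replicates 1, 4 and 5 was left out (adjusted p up to 0.0741). The day 14 call was lost without any of uninjured replicates 1, 2 and 5 and day 14 replicates 2, 4 and 5 (adjusted p up to 0.0694).

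Fzd2 and Fzd1 rose early. They encode closely related receptors. Fzd2 was at 1.21, 1.27, 0.745, 1.31 and 0.914 FPKM without injury and at 3.24, 3.02, 4.26, 4.92 and 2.94 on day 3. On day 7 it ran from 1.71 to 3.72 FPKM with a median of 2.88, still wholly above the uninjured range, and on day 14 from 0.812 to 1.62 with a median of 1.13. The day 21 libraries, at 0.971, 1, 1.45, 1.02 and 0.440 FPKM, overlapped the uninjured ones. The log2 fold change was 1.15 ± 0.15 on day 3 (adjusted p = 3.35e-06) and 0.83 ± 0.15 on day 7 (adjusted p = 0.000299). It was 0.09 ± 0.15 on day 14 (adjusted p = 0.711, and -0.05 with quantile normalization) and -0.09 ± 0.15 on day 21 (adjusted p = 0.776, above 0 at 0.02 and 0.01 under the 2 rescalings). Fzd1 averaged 0.597 FPKM without injury, 1.80 on day 3, 2.26 on day 7, 1.18 on day 14 and 0.952 on day 21, and was called on day 3 (0.82 ± 0.22, adjusted p = 0.00414) and day 7 (0.99 ± 0.21, adjusted p = 0.0016).

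Fzd4, a receptor of blood vessel endothelium that also binds the non-Wnt ligand norrin, was called higher on day 14. It averaged 6.21 ± 0.33 FPKM without injury, 5.43 on day 3 and 6.26 on day 7, then 9.92 ± 2.58 on day 14 and 9.71 ± 1.26 on day 21. Every library of days 14 and 21, at 6.85 to 14.4 and 8.08 to 11.3 FPKM, was above the highest uninjured one at 6.73. It was called on day 14 (0.57 ± 0.17, adjusted p = 0.022), a call lost without day 14 replicate 1 (0.46, adjusted p = 0.0584), and the same-sized difference on day 21 was not (0.56 ± 0.18, adjusted p = 0.08). Its earlier values depended on the scaling: the log2 fold change was -0.20 on day 3 and -0.03 on day 7 as deposited, 0.54 and 0.64 under the common sum, and 0.36 and 0.44 under the own total, where day 7 was called in both (adjusted p = 0.0298 and 0.0482). The 4 listed endothelial markers, all detected, summed to 55.9 to 67.2 FPKM without injury, 43.3 to 111 on day 14 and 51.0 to 70.7 on day 21, and their part was not tested. Fzd7, described as a receptor for Wnt7a on satellite cells, averaged 6.46 FPKM without injury, 3.87 on day 3, 4.48 on day 7, 3.52 on day 14 and 5.28 on day 21. It was called lower on day 3 (-0.58 ± 0.18, adjusted p = 0.0118) and day 14 (-0.70 ± 0.17, adjusted p = 0.00659), but the day 3 direction turned to 0.12 under the rescaling to a common sum and was -0.03 under the own total, where neither was called. The day 14 call was lost as well, at -0.33 (adjusted p = 0.391) and -0.36 (adjusted p = 0.179).

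**Figure D4:**
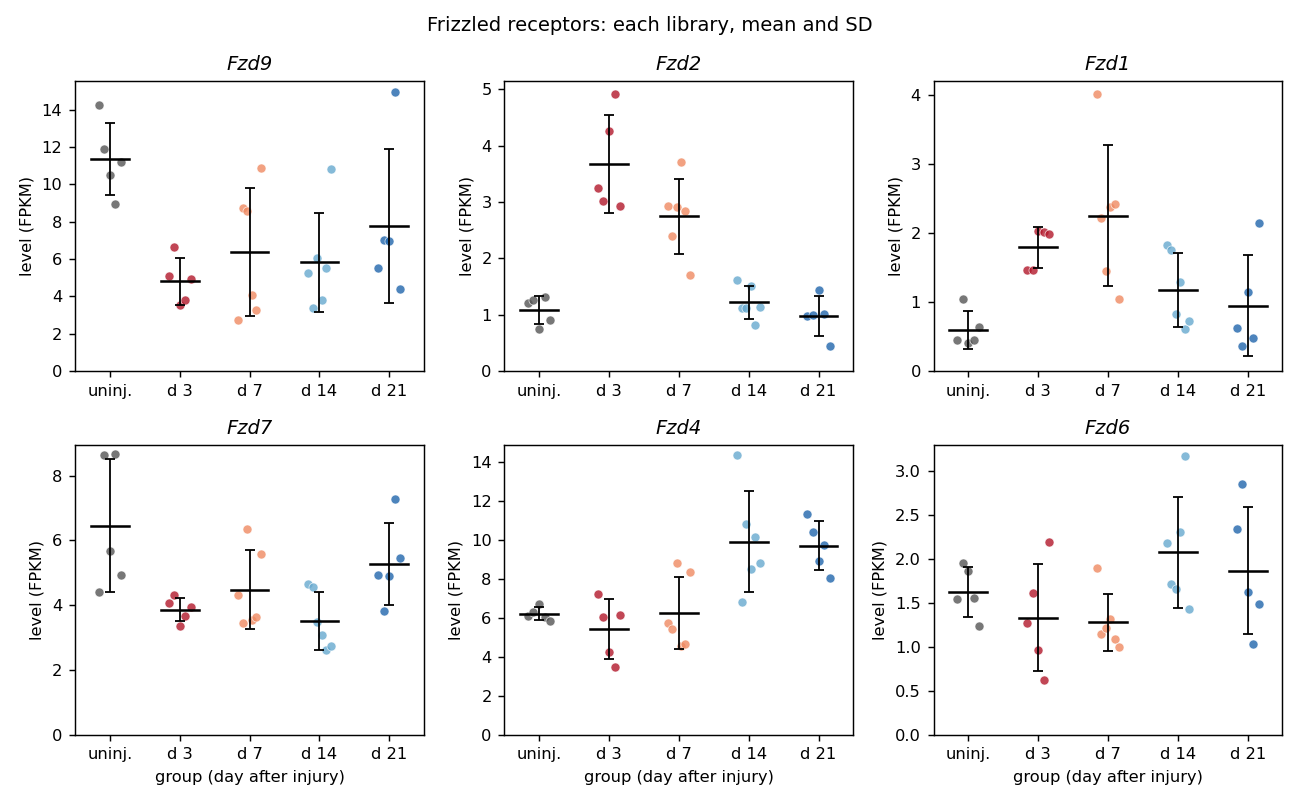
Level in FPKM of Fzd9, Fzd2, Fzd1, Fzd7, Fzd4 and Fzd6 in each library (points), with group mean (line) and SD (bars); each panel has its own axis. Fzd9 lies below all uninjured libraries on day 3, Fzd2 above them on days 3 and 7, and Fzd4 above them on days 14 and 21.

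The remaining Frizzleds were lower in level and were not called in the fit of all samples under the deposited scaling. Under both rescalings Fzd5 was called higher on day 3, and under the common sum Fzd10 was called higher on day 7. With sample quality weights Fzd10 was called higher on days 7 and 14. Fzd5, Fzd6, Fzd8 and Fzd10 had group means of 0.374 to 0.633, 1.28 to 2.08, 1.4 to 1.85 and 0.193 to 0.552 FPKM, and Fzd3 stayed at or under 0.182 FPKM in every library. The Frizzled sum was 29.9 ± 3.01 FPKM without injury, 23.4 ± 2.26 on day 3, 26.2 ± 4.85 on day 7, 26.2 ± 3.95 on day 14 and 29.1 ± 4.27 on day 21. Within it, Fzd9 made up 38.1% without injury and 20.4% on day 3, Fzd2 3.62% and 16.1%, and Fzd4 20.9% and 23%. On day 14 Fzd4 held 37.5% and Fzd9 22.1%. Mean levels placed the uninjured receptors in the order Fzd9, Fzd7, Fzd4, Fzd8 and Fzd6, in which Fzd7 and Fzd4 (6.46 ± 2.04 and 6.21 ± 0.33) and likewise Fzd8 and Fzd6 (1.85 ± 0.48 and 1.63 ± 0.29) differed by less than their SD.

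Among the ligands, Wnt4 and Wnt9a were the most abundant, with 39.4% and 33.6% of the ligand sum of 16.1 ± 3.09 FPKM in uninjured muscle. Their shares overlapped between libraries, at 27.5% to 47.1% for Wnt4 and 28.1% to 39.8% for Wnt9a. Wnt4 acts in organ development and at the neuromuscular junction. It was at 4.19, 7.88, 5.10, 5.46 and 9.68 FPKM without injury and at 3.74, 2.54, 2.90, 1.51 and 1.71 on day 3, with no overlap. It ran from 2.44 to 6.56 FPKM on day 7 (median 3.84) and from 1.35 to 5.01 on day 14 (median 3.15). The day 21 libraries, at 5.26, 5.52, 2.32, 9.04 and 5.87 FPKM, covered nearly the uninjured range. The log2 fold change was -1.09 ± 0.28 on day 3 (adjusted p = 0.00313), -0.52 ± 0.27 on day 7 (adjusted p = 0.148), -0.86 ± 0.27 on day 14 (adjusted p = 0.0276) and -0.21 ± 0.28 on day 21 (adjusted p = 0.722). Under the rescaling to a common sum the day 3 value was -0.50 (adjusted p = 0.166), or -1.05 relative to the median of all genes, and the day 7 value turned to 0.08. The day 14 value was -0.54 under the common sum (adjusted p = 0.193) and -0.54 under the own total (adjusted p = 0.115). The day 14 call was lost without any of uninjured replicates 2 and 5 and day 14 replicates 1, 4 and 5 (adjusted p up to 0.0903). Without day 21 replicate 3 the day 21 value was 0.02.

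Wnt9a fell from 5.32 ± 0.50 FPKM without injury to 3.31 ± 1.05 on day 3 and stood at 3.70, 3.76 and 3.69 on days 7, 14 and 21. All libraries of days 3, 7 and 14 lay below the lowest uninjured one at 4.74 FPKM. It was called on day 3 (-0.58 ± 0.17, adjusted p = 0.00585) and day 7 (-0.45 ± 0.16, adjusted p = 0.0353), but under the rescaling to a common sum both values turned to 0.08 and 0.17 and the day 7 value was 0.01 under the own total. Relative to the median of all genes they were -0.47 and -0.35 under the rescaling. The day 7 call was also lost without any of uninjured replicates 1, 2, 4 and 5 and day 7 replicates 5 and 6 (adjusted p up to 0.0843). The day 14 and day 21 values were -0.41 ± 0.16 (adjusted p = 0.0651) and -0.45 ± 0.17 (adjusted p = 0.121).

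Wnt11, a ligand of the non-canonical branch, averaged 2 FPKM without injury, 1.69 on day 3, 2.61 on day 7, 3.54 on day 14 and 3.16 on day 21. Its day 14 value of 0.61 ± 0.22 passed the test narrowly (adjusted p = 0.0498), and leaving out any of 18 libraries ended the call (adjusted p up to 0.114); it held without any 1 of uninjured replicate 1, day 3 replicates 4 and 5, day 7 replicates 4, 5 and 6, day 14 replicate 3 and day 21 replicates 4 and 5. Its exons overlap the pseudogene Gm8398 on the opposite strand. Wnt10a had 3 reads in all 5 uninjured libraries together (in replicate 1) and 29, 15, 39, 31 and 6 reads on day 3, which is 0.563, 0.372, 0.599, 0.551 and 0.114 FPKM. It was called on day 3 (0.49 ± 0.15, adjusted p = 0.0113), and the pooled ratio of rates was 25.7 with a 95% exact interval of 8.59 to 126. It reached 0.5 FPKM in exactly 5 libraries, 3 of day 3 and 1 each of days 7 and 21, and so entered the test only through injured muscle. It lies 6193 bases from Wnt6, with which it forms 1 of 4 ligand pairs that are neighbours in the genome, and Wnt6 itself stayed at 0.406 to 0.893 FPKM in group means and was not called.

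Wnt7b did not pass the filter and, like the reads of Wnt10a per library, is given after its values were seen, because it was called when no filter was applied. It had 1, 0, 1, 0 and 0 reads in uninjured muscle and 56, 20, 55, 35 and 0 on day 3, and 79 and 20 reads in day 7 replicates 5 and 6, with at most 1 read in the other 4 day 7 libraries. In the fit without a filter it was higher on day 3 (0.36 ± 0.10, adjusted p = 0.00941). The pooled ratio of rates on day 3 was 53.4 (interval 14.5 to 444). Its exons overlap the antisense gene AU022754, whose reads cannot be told apart within the shared stretch. The 4 day 3 libraries with Wnt7b reads had macrophage marker sums of 988 to 2127 FPKM and day 7 replicate 5 had 1988, while day 3 replicate 5, without a read, had 306. Day 7 replicate 6, with 20 reads, had the lowest sum of its group at 42.7 FPKM. The part of the macrophage content was not tested.

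**Figure D5:**
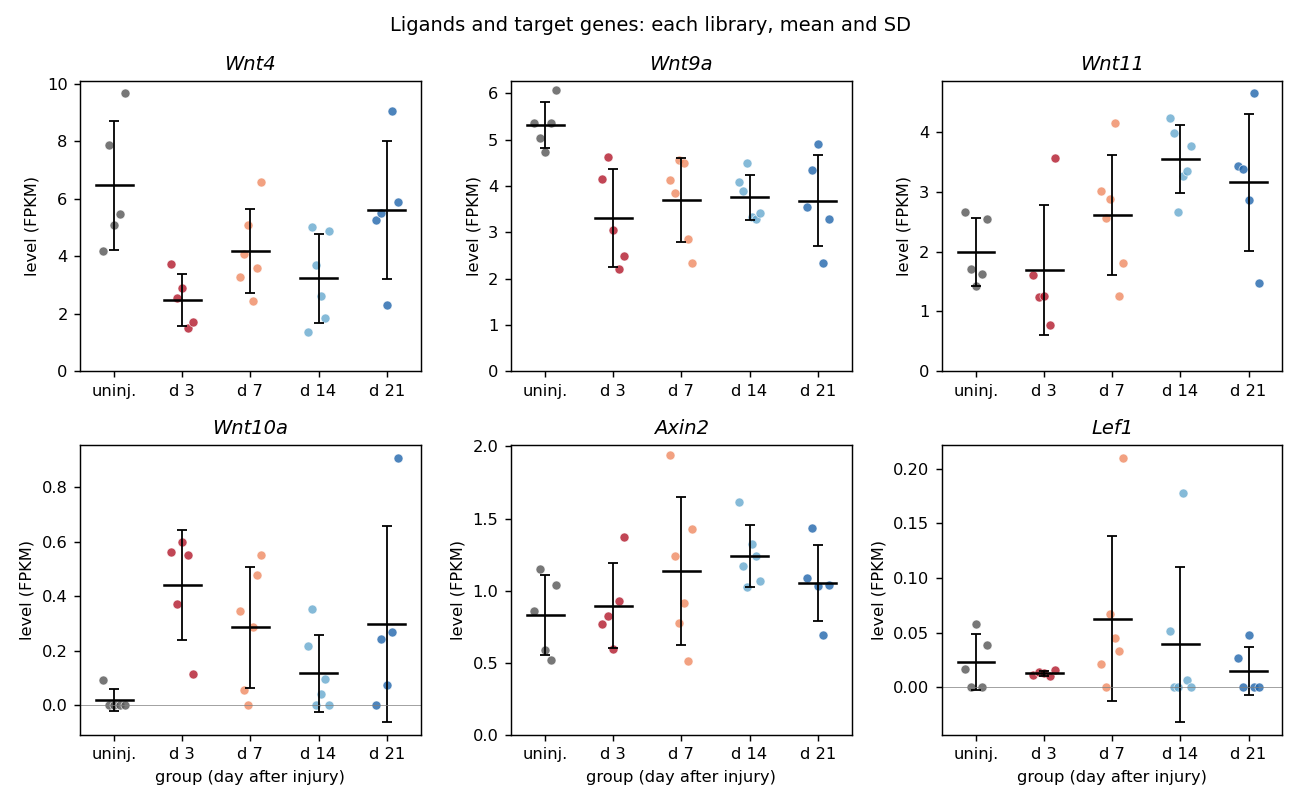
Level in FPKM of the ligands Wnt4, Wnt9a, Wnt11 and Wnt10a and of the target genes Axin2 and Lef1 in each library (points), with group mean (line) and SD (bars); each panel has its own axis and the SD bar of a gene near 0 can pass below 0. Wnt4 is lowest on day 3, Wnt10a has no read in 4 of 5 uninjured libraries, Axin2 stays near 1 FPKM and Lef1 never exceeds 0.21 FPKM.

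The remaining ligands were low. Wnt5a and Wnt5b, non-canonical ligands, had group means of 0.412 to 0.808 and 0.783 to 1.12 FPKM and were not called as deposited. Wnt5a was called higher on day 7 under both rescalings and lower on day 3 with quantile normalization. Among the 12 ligands under the filter, Wnt2b reached 0.981 FPKM and Wnt10b 0.849 in a single library each. Wnt1, Wnt3, Wnt7a, Wnt8a, Wnt8b and Wnt9b had 2 to 24 reads each over all 27 libraries, Wnt16 had 89 and Wnt2 had 139. The ligand Wnt7a, used in muscle studies as a stimulus of satellite cells, had 2 reads in all, both in day 14 replicate 4.

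Dickkopf and R-spondin genes showed no called change in the fit of all samples under the deposited scaling. Dkk3, a divergent member of its family, averaged 1.79 FPKM without injury, 1.3 on day 3, 3.93 ± 2.14 on day 7, 2.26 on day 14 and 2.31 on day 21, with a day 7 value of 0.75 ± 0.37 (adjusted p = 0.121). Dkk2 averaged 0.483 FPKM without injury and 1.27 ± 1.01 on day 7 (0.52 ± 0.23, adjusted p = 0.09). Under the 2 rescalings both were called higher on day 7. Dkk1 was read 11 times and Dkk4 14 times over all libraries. Rspo3 had group means of 0.177 to 0.433 FPKM, and Rspo1, Rspo2 and Rspo4 had 133, 84 and 32 reads in all. Under both rescalings Rspo3 was called higher on day 3 than without injury, and lower on day 21 than on day 3.

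Axin2, a negative regulator that canonical signalling induces, was at 0.859, 1.15, 0.588, 0.516 and 1.04 FPKM without injury and at 0.766, 0.822, 0.592, 0.925 and 1.37 on day 3. It ran from 0.511 to 1.94 on day 7 (median 1.08) and from 1.03 to 1.62 on day 14 (median 1.21), and was at 1.09, 1.43, 1.03, 0.689 and 1.04 on day 21. The groups overlapped at every time. Exact permutation tests of Axin2 gave an unadjusted p = 0.738 on day 3, 0.297 on day 7, 0.0152 on day 14 and 0.198 on day 21. Its log2 fold change was 0.05 ± 0.15 on day 3 (adjusted p = 0.817), 0.20 ± 0.14 on day 7 (adjusted p = 0.303), 0.30 ± 0.14 on day 14 (adjusted p = 0.14) and 0.17 ± 0.15 on day 21 (adjusted p = 0.565). The day 3 direction turned under quantile normalization (-0.15) and without uninjured replicate 4 (-0.01) or day 3 replicate 5 (-0.03). On day 7 Axin2 was called under the rescaling to a common sum (0.72, adjusted p = 0.0298) and the own total (0.45, adjusted p = 0.0407), where the median of all genes was itself 0.52 and 0.36. Its exons overlap the antisense gene Gm11670. Lef1, the TCF/LEF factor that is itself a target, had 0 to 31 reads per library and at most 0.21 FPKM, and a change was not detectable at this depth.

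The levels on day 21 were also compared with those on day 3. Of the 25 members, 6 differed (24%), against 25.5% of all tested genes. Higher on day 21 were Wnt4 (0.88 ± 0.28, adjusted p = 0.0246), Wnt11 (0.66 ± 0.23, adjusted p = 0.0363) and Fzd4 (0.76 ± 0.18, adjusted p = 0.0031), where 9.23% of all genes were higher. Lower were Sfrp2 (-2.99 ± 0.46, adjusted p = 8.06e-05), Fzd2 (-1.24 ± 0.15, adjusted p = 2.56e-05) and Sfrp1 (-0.81 ± 0.29, adjusted p = 0.042), where 16.2% of all genes were lower. Of the 3 higher members, Wnt11 (-0.21, adjusted p = 0.482) and Fzd4 (-0.20, adjusted p = 0.402) had not been called on day 3 against uninjured muscle. Their difference is thus not the receding of a called early change. Under both rescalings none of the 3 higher members was called. Wnt4 lost its call without day 3 replicates 4 or 5 or day 21 replicate 4 (adjusted p up to 0.0815), Wnt11 without any 1 of replicates 1 to 4 of either group (up to 0.131), and Sfrp1 without any of day 3 replicates 3, 4 and 5 and day 21 replicates 1, 2, 4 and 5 (up to 0.129). Over the 5 groups together, an F test called 11 of the 25 members against 39.9% of all genes, namely Wnt4, Wnt9a, Wnt11, Fzd1, Fzd2, Fzd4, Fzd7, Fzd9, Sfrp1, Sfrp2 and Sfrp4.

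The rest of the pathway was read from a list of 63 genes that are not members, of which 49 were tested. On day 3, 14 were higher and 10 lower (49.0% called), on day 7 14 and 4 (36.7%), on day 14 7 and 5 (24.5%), and on day 21 0 and 1 (2.04%), beside the shares of all genes given above. Under the common sum the higher and lower calls were 22 and 1, 25 and 1, 7 and 1, and 0 and 0, and under the own total 22 and 2, 21 and 2, 11 and 1, and 0 and 0, which were run after the data were seen. The counts of all genes called under each on days 3, 7 and 14 are given above. Both tested genes of ligand secretion were higher on days 3, 7 and 14. These were, named after their values were seen, Wls, which carries Wnt proteins to the cell surface (0.71, 0.67 and 0.42 on the log2 scale), and Porcn, the enzyme that attaches their lipid (0.46, 0.46 and 0.74). Of 8 tested co-receptors and alternative receptors, 2 were higher and 2 lower on day 3, with Ptk7, a receptor of the polarity branch, the most changed (1.16 ± 0.22, adjusted p = 0.000148). Of 12 tested cytoplasmic transducers, 1 was higher and 3 lower on day 3, and of 11 nuclear factors 3 were higher and 2 lower, among the latter Pygo1, a beta-catenin cofactor (-1.16 ± 0.20, adjusted p = 6.37e-05). Pygo1 stayed called lower under the common sum (-0.79, adjusted p = 0.0032) and the own total (-0.74, adjusted p = 0.000493). Of 8 tested feedback and common target genes, 5 were higher and 1 lower on day 3. They included Wisp2 (2.70 ± 0.37, adjusted p = 4.73e-06) and Wisp1 (1.54 ± 0.22, adjusted p = 7.01e-06), matricellular proteins first described as Wnt-induced, and Myc (1.51 ± 0.28, adjusted p = 0.000129), a growth regulator with many inputs besides Wnt. Wisp2 and Myc were called on days 3, 7 and 14, and Wisp1 on days 3 and 7. Whether their changes differ from that of Axin2 was not tested.

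Cell type markers moved over the same days. The 5 listed markers of matrix-forming fibroblasts summed to 45.5 to 117 FPKM without injury, 424 to 860 on day 3, 275 to 1166 on day 7, 146 to 571 on day 14 and 124 to 217 on day 21, and the 5 of macrophages to 15.9 to 24.2, 306 to 2127, 42.7 to 1988, 42.7 to 99.6 and 30.7 to 55.5. The 5 of muscle fibres summed to 52183 to 65968 FPKM without injury, 16085 to 36227 on day 3 and 19623 to 58657 on day 7. On day 14 they summed to 24126 to 56830 and on day 21 to 37643 to 60951. Each of these 15 markers reached 0.1 FPKM in at least 1 library of every group. The 5 listed markers of fibro-adipogenic progenitors moved less than those of matrix-forming fibroblasts. They summed to 66.7 to 82.6 FPKM without injury, 101 to 178 on day 3 and 52.8 to 161 on day 7. On day 14 they summed to 56.3 to 123 and on day 21 to 58.7 to 84.9. The 4 of satellite cells and myoblasts summed to 16.9 to 25.7 FPKM without injury and 74.6 to 294 on day 3, the 4 of Schwann cells to 18.1 to 155 and 5.92 to 13.8, and the 3 of adipocytes to 0.249 to 2.17 without injury and 1.59 to 37.0 on day 7. The part of these cell types in the values of Sfrp1, Sfrp2, Sfrp4, Wnt4 and Fzd9 was not tested. Replicate 5 of day 3 was closest to the day 7 mean and replicate 5 of day 7 to the day 3 mean. Leaving out both, an alternative chosen after the data were seen, called the same 9 members on day 3 and the same 8 on day 14. On day 7 it called 8, all higher: Fzd9 (-0.74, adjusted p = 0.078) and Wnt9a (-0.39, adjusted p = 0.0795) lost their calls, and Dkk2, Dkk3 and Fzd10 gained one. Of all 14630 tested genes, this alternative called 6330 on day 3, 3409 on day 7 and 3515 on day 14.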

How the data were processed

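Poly-A RNA of whole tibialis anterior muscle was sequenced in 27 samples. The authors prepared non-directional libraries, aligned reads with HISAT2 2.0.5 and counted them with featureCounts 1.5.0-p3, per the submitters' processing notes, and deposited 1 table of FPKM values. The genome build is not given in the sources used here; coordinates of 44 of the 45 members were the same as in GENCODE M21 (GRCm38). FPKM times gene length gave whole reads (within 0.01) for 100% of values above 0, and these reads give the depth and the counts in the text.

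Groups and replicate numbers were read from sample titles. Genes that reached 0.5 FPKM in 5 or more samples were fitted on log2(FPKM + 1) with limma 3.58.1 (R 4.3.3), with 1 mean per group, all samples in 1 fit, a variance trend, and two-sided tests adjusted by Benjamini-Hochberg at 0.05. The fit was tested on simulated data. Single genes were also compared with exact permutation tests. Pooled-read ratios carry exact 95% binomial intervals (scipy 1.17.1).

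Full statistics are given for members called against uninjured muscle with a log2 fold change of at least 1, and for Axin2 and Lef1; pathway genes are named where called at 2 or more times with such a change, and Wls, Porcn and Wnt7b after their values were seen. Ccn4 and Ccn5 of the pathway list are Wisp1 and Wisp2 in the table. The members, lists and rule were chosen with earlier results of these data known. Alternatives were other pseudocounts, filters, scalings, weights, blocks, and samples left out.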

Additional observations from a re-analysis of the deposited data

Results flagged for a closer look

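About 1 in 20 groups is flagged by chance, and 7 of 125 groups of the testable members were, so the following single libraries are given as values. Wnt5b was at 0.214 FPKM in uninjured replicate 4, against 0.798 to 1.02 in the others. Wnt6 was at 3.26 FPKM in day 7 replicate 6, against 0.161 to 0.61, which is the library with the highest Sfrp5 and the highest Schwann cell marker sum. Wnt10a was at 0.0913 FPKM, or 3 reads, in uninjured replicate 1 and at 0 in the others. Fzd10 was at 0.0885 FPKM in day 3 replicate 1, against 0.339 to 0.405. Sfrp4 was at 11 FPKM in day 7 replicate 3, against 0.433 to 2.17. Dkk3 was at 2.67 FPKM in day 3 replicate 5, against 0.732 to 1.13, and at 5.53 in day 14 replicate 2, against 1.26 to 2.25.

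The effect of injury differed between day 21 and day 3 for 6 members, tested as a contrast in limma. The difference of the log2 fold changes was -2.99 for Sfrp2, -1.24 for Fzd2, -0.814 for Sfrp1, 0.763 for Fzd4, 0.878 for Wnt4 and 0.659 for Wnt11. Adjusted p-values ran from 2.56e-05 for Fzd2 to 0.042 for Sfrp1.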

How the results depend on the processing

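The count of called members kept within 1.5 times on day 3 (7 to 11) and over the 5 groups (9 to 15) under every alternative run. On day 7, 7 called members became 14 under the rescaling to a common sum and 11 with the own total of reads, all of them higher. On day 14, 8 became 4 without a filter, 5 with quantile normalization, and 4 under each rescaling. Of all genes, 2205 of 31179 were called without a filter and 2311 of 14630 with quantile normalization. On day 21, 0 became 2 with a pseudocount of 0.1 (Sfrp2 and Sfrp4), 5 with sample quality weights, 4 with only the groups compared and 1 (Fzd9) with the letter of the sample description as block. The letter block called 1233 of all 14630 genes on day 21. For day 21 against day 3, 6 became 10 with quality weights and 3 (Fzd4, Sfrp2 and Fzd2) with the letter block. Of all 14630 genes, quality weights called 6472 there and the letter block 2925. On day 3 both rescalings turned 5 higher and 4 lower calls into 9 and 7 higher calls with 0 lower. The cause of these changes was not tested. Leaving out 1 library gave 9 on day 3, 5 to 9 on day 7, 4 to 9 on day 14, 0 to 1 on day 21, 3 to 7 for day 21 against day 3, and 8 to 13 over the groups. Of all 14630 genes, 5289 to 6517, 3251 to 5220, 1895 to 3358, 190 to 707 and 2316 to 4076 were called in the first 5 of these. Those with the fewest calls on day 14 (4) lacked uninjured replicate 5 or day 14 replicate 1, 4 or 5, and 5 were called without uninjured replicate 2 or day 14 replicate 2. For day 21 against day 3, 3 were called without day 3 replicate 4 or day 21 replicate 4, where 2316 and 3149 of all genes were called, against 3728. The 1 call on day 21 appeared without day 7 replicate 3, where 707 of all genes were called, against 502.

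Among the results recomputed under every alternative, directions turned for 3 called decreases, given last, and for these values that were not called: Wnt4 on day 7 (0.0789 under the common sum) and on day 21 (0.016 without day 21 replicate 3, in a range of -0.384 to 0.016 over single libraries left out), Fzd2 on day 14 (-0.0527 with quantile normalization) and on day 21 (0.0224 under the common sum, 0.0149 with the own total and 0.0173 without day 21 replicate 5, in a range of -0.174 to 0.0173), and Fzd9 for day 21 against day 3 (-0.0208 under the common sum). Axin2 turned on day 3 (-0.146 with quantile normalization, -0.0589 with quality weights, -0.0145 without uninjured replicate 4, -0.0342 without day 3 replicate 5 in a range of -0.0342 to 0.112, and -0.0342 without the pair of libraries left out after the data were seen) and for day 21 against day 3 (-0.251 under the common sum and -0.11 with the own total). The called decreases turned for Fzd7 on day 3 (0.119 under the common sum) and for Wnt9a on day 3 (0.0804) and day 7 (0.169, and 0.0127 with the own total). Under 1 or both rescalings the sign also turned for Fzd4 on days 3 and 7, Fzd7 on day 7, Wnt11 on day 3, and Fzd7 and Wnt9a for day 21 against day 3. Of 1885 single-gene values under alternatives, 1728 kept direction and call. With the replicate number as a block, 9, 7, 7, 0 and 6 members were called in the 5 comparisons, against 9, 7, 8, 0 and 6. Of all 14630 genes, that block called 6560, 4986, 3684, 795 and 4069, against 6316, 4296, 2969, 502 and 3728. Deviations of same-numbered samples had a median r of -0.00315 over 51 pairs (15 above 0.1) and those with the same letter 0.02 over 49 pairs (15 above 0.1). Neither was taken as a pairing in the main fit. Single pairs ran from -0.521 to 0.566 in both, so a median near 0 cannot show that no pairing exists. Genes with few reads, such as Lef1 and most ligands, could not be compared at this depth.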

Other observations

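Among the 20 members under the filter, 7 had their highest FPKM in day 7 replicate 6: Rspo1 (1.45), Wnt10b (0.849), Rspo4 (0.372), Wnt1 (0.27), Wnt8b (0.214), Lef1 (0.21) and Fzd3 (0.182).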
